A study of Schistosoma mansoni with 6 samples.

Results

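Most of the genes described here encode enzymes of glycolysis, lactate formation, glycogen turnover, pyruvate oxidation, the citrate cycle and the pentose phosphate shuttle of Schistosoma mansoni, a blood fluke. All were chosen by searching the gene annotations of the deposited table for enzyme names (hexokinase, aldolase, pyruvate, glycogen, isocitrate, malate dehydrogenase and similar words). Annotations with the words transporter or glycogen synthase kinase were left out. A mitochondrial 2-oxoglutarate:malate carrier (Smp_004080), which is not an enzyme, does not hold these words and was kept. The search found 49 genes, of which 1, an isocitrate dehydrogenase (NAD+) (Smp_203680), was at 0 in both groups. The other 48, of 9947 genes with reads, are the members described below, and 45 of them had at least 100 normalised counts, averaged over all libraries. By annotation 42 belong to the pathways themselves, and 6 were found only because their names share a word with them.

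RNA was compared between tails, the body fragments posterior to the ovary, and heads, the fragments anterior to it, of adult female worms recovered from mice 7 to 8 weeks p.i. There were 3 tail and 3 head libraries, each made from many pooled fragments. RNA was extracted in 3 independent rounds, and which tail and head libraries shared a round cannot be read from the deposited table. No treatment or strain is given in the labels, and the groups differ by body region. Most of the tail is vitellarium, the organ that makes the yolk cells packed around each oocyte, but it also holds intestine, tegument and protonephridia, so that neither fragment is a single tissue.

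Glycolysis splits glucose into pyruvate, and lactate dehydrogenase turns pyruvate into lactate so that glycolysis can go on without oxygen. Alternatively, pyruvate enters the mitochondrion, where the pyruvate dehydrogenase complex makes acetyl-CoA and the citrate cycle oxidises it. Adult schistosomes take up large amounts of host glucose, excrete much of it as lactate and store glycogen, and the non-oxidative pentose phosphate enzymes link sugar breakdown to the ribose needed for nucleotides.

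The level of a gene in a group is the authors' mean of normalised counts, that is, of reads divided by a size factor for each library. These means carry no error of their own. For genes of low level the whole reads of each library were solved from the mean, which gave single tail libraries for 16 members and single libraries of both groups for 8. The libraries are named by size factor: 0.72, 0.35 and 0.32 in tails, against 2.55, 2.35 and 2.08 in heads. Estimated depth was 5.25 to 11.8 M reads in tail libraries and 25.4 to 31.1 M reads in head libraries, so tail values are the less precise. Over genes with a tail mean of 300 to 1000, the median SD between tail libraries was 0.23 on the log2 scale, and over genes with a head mean of 200 to 400 that between head libraries was 0.09. Abundant members had no recovered reads, and for these a difference of single libraries with an SD of 0.25, combined from both values, serves as a scale but not as a test. In 35 members the log2 fold change between group means exceeded it, and in 13 it did not. Passing 0.25 was common among all genes: the quartiles over those with a mean of at least 100 were -0.55 and 0.66. For a difference between means of 3 libraries, the SE from the same spreads was 0.14.

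The vitelline cell markers were all higher in tails, and each of the other marker lists held genes of both directions. All 6 vitelline cell genes were at least 2-fold higher in tails, with a median log2 fold change of 6.71, and held 4.26% of tail counts and 0.0616% of head counts. The paper names most of these genes, the tyrosinases and the superoxide dismutase among them, as enriched in tails in these same libraries. The list was chosen with that known, so its direction was fixed in advance and cannot check the labels of the fragments. Of 16 genes annotated as Mini Exon Genes (MEG), which stand here for the oesophageal gland, 11 were at least 2-fold lower in tails and 4 higher. Genes of the MEG-2 (ESP15) and MEG-3 (Grail) families were found on both sides. The counts include genes near 0 in both groups, such as Smp_159800 (0 in tails, 0.28 in heads) and Smp_138080 (0.46 in tails, 0 in heads). Whether each gene of this list is expressed in the gland was not tested. Of 23 genes found by words for muscle proteins, 14 were at least 2-fold lower in tails and 1 higher, with a median of -1.68. They held 0.258% of counts in tails and 1.09% in heads. Among them were genes annotated as a non muscle myosin heavy chain (Smp_046060, -0.83) and a cellular myosin heavy chain (Smp_155840, 0.66). Of 36 genes with tegument or tetraspanin in their annotation, 18 were at least 2-fold lower in tails and 3 higher. Among the 3 was the tetraspanin Smp_155310, with 28919 in tails and 326 in heads. The paper describes the tegument, as a tissue, as evenly distributed. Which of these genes are expressed in that tissue was not tested. Of 29 genes found by words for the nervous system, 7 were at least 2-fold lower and 3 higher, with a median of -0.26. These words also found genes annotated heat shock protein 67b2, Smp_006560 (1.34), which is among the 3 higher, and Smp_007450 (-0.93). Expression of the listed genes in nerve cells was not tested. Of 23 genes of proliferating cells, 12 were at least 2-fold higher and 4 lower. Both counts include genes near 0, such as Smp_082750 (0.93 in tails, 0 in heads) and Smp_077790 (0 in tails, 0.16 in heads). Over all genes with reads, 26.3% were at least 2-fold lower and 14.8% higher. The part of these tissues in the member values was not tested. In bulk RNA, fewer cells of a type and less RNA per cell cannot be told apart.

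As a list, the 48 members were divided evenly between the groups. Their means were higher in tails for 25 and lower for 23, with a median log2 fold change (tail over head) of 0.13. The corresponding median was -0.04 over all genes with reads, 0.14 over the 7196 genes with a mean of at least 100 and 0.32 over the 3086 with a mean of at least 1000. Of those 7196 genes, 4023 were higher in tails and 3173 lower, and of the 3086, 2035 were higher and 1051 lower. In 5 members the tail mean was at least 2-fold higher, beside 14.8% of all genes, and in 3 it was at least 2-fold lower, beside 26.3% of all genes. Among genes with a mean of at least 100 these backgrounds were 13.9% and 16.7%. The members ranged from -1.63 to 1.40, and none differed by as much as any of the 6 vitelline markers. Together the members took up 2.30% of the counts in tails and 3.24% in heads. The scaling matters here, because tail means summed to more than head means: with both groups set to equal totals, each log2 fold change falls by 0.43, and 16 members lie above 0 and 32 below.

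**Figure D1:**
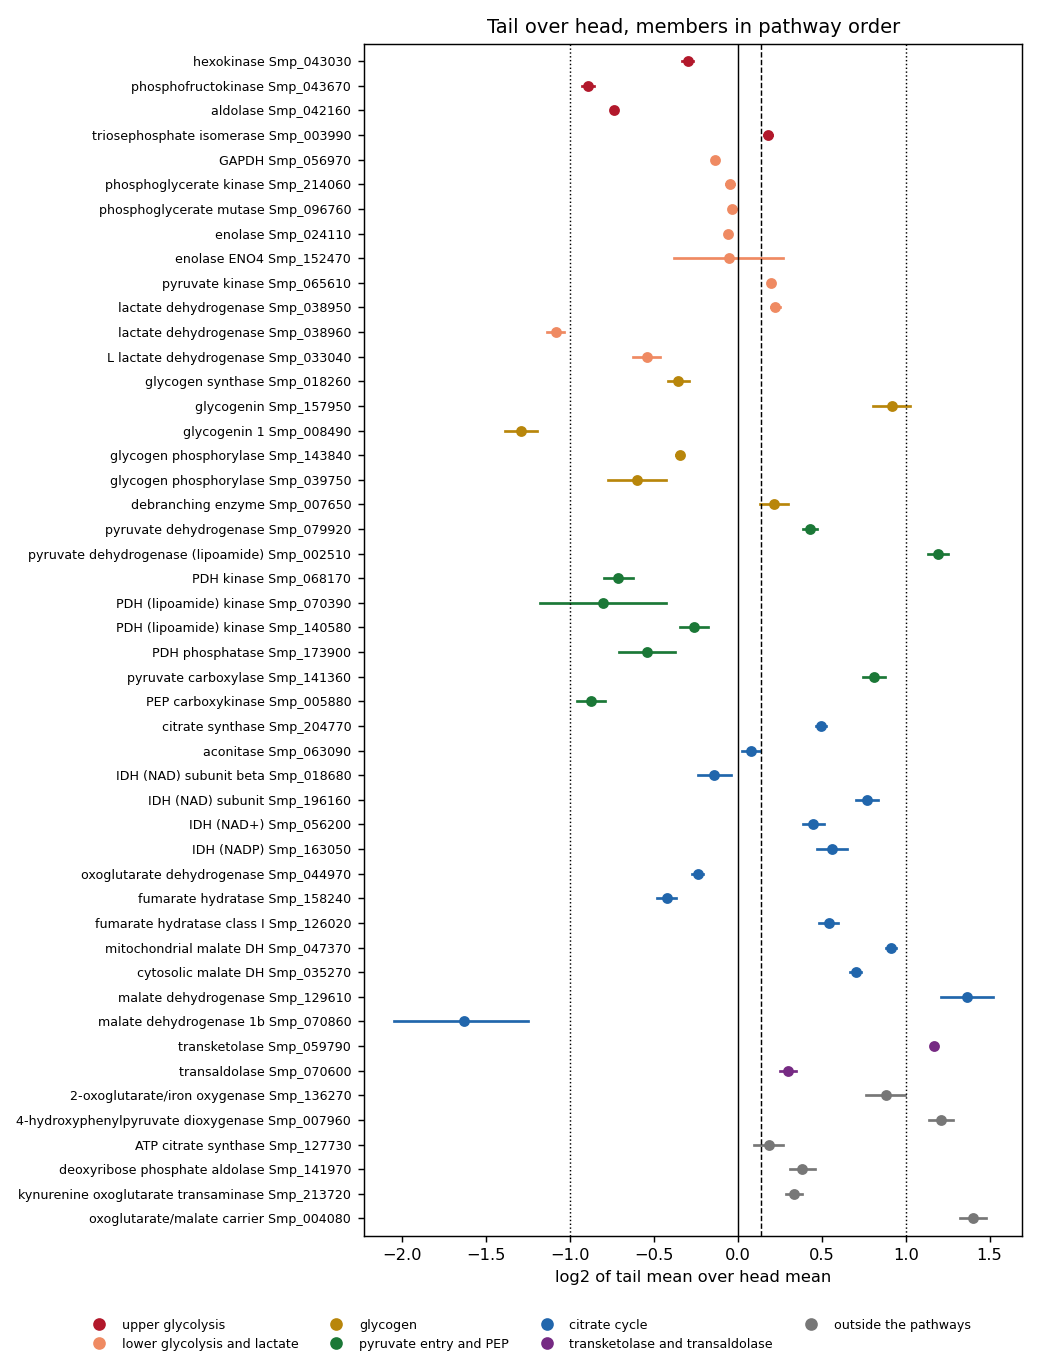
Log2 of the tail mean over the head mean for each of the 48 members in pathway order, coloured by role, with 95% counting intervals as bars (some are narrower than the point), a dashed line at the median of genes with a mean of at least 100 (0.14) and dotted lines at 2-fold. Upper glycolysis and the glycogen genes lie mostly left of 0, most citrate cycle genes lie right of it, and malate dehydrogenase 1b (-1.63) and the oxoglutarate/malate carrier (1.40) mark the ends of the range.

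A test against the spread between libraries was possible for the 8 members with reads recovered in both groups, all of low level. With limma on log2(normalised count + 1), 3 were higher in tails at an adjusted p under 0.05 and 4 were lower, beside 22.0% and 41.6% of the 3915 genes tested. The genes tested were limited to a tail mean under 1000 and a head mean under 400 and had a median log2 fold change of -0.54, so these shares describe genes of low level only. In all 7 called members the 3 tail libraries and the 3 head libraries did not overlap. With the values centred on that median, 4 calls held (malate dehydrogenase Smp_129610, malate dehydrogenase 1b, a glycogenin and an oxygenase), and the 3 others, whose adjusted p is given with each gene, were lost.

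**Figure D2:**
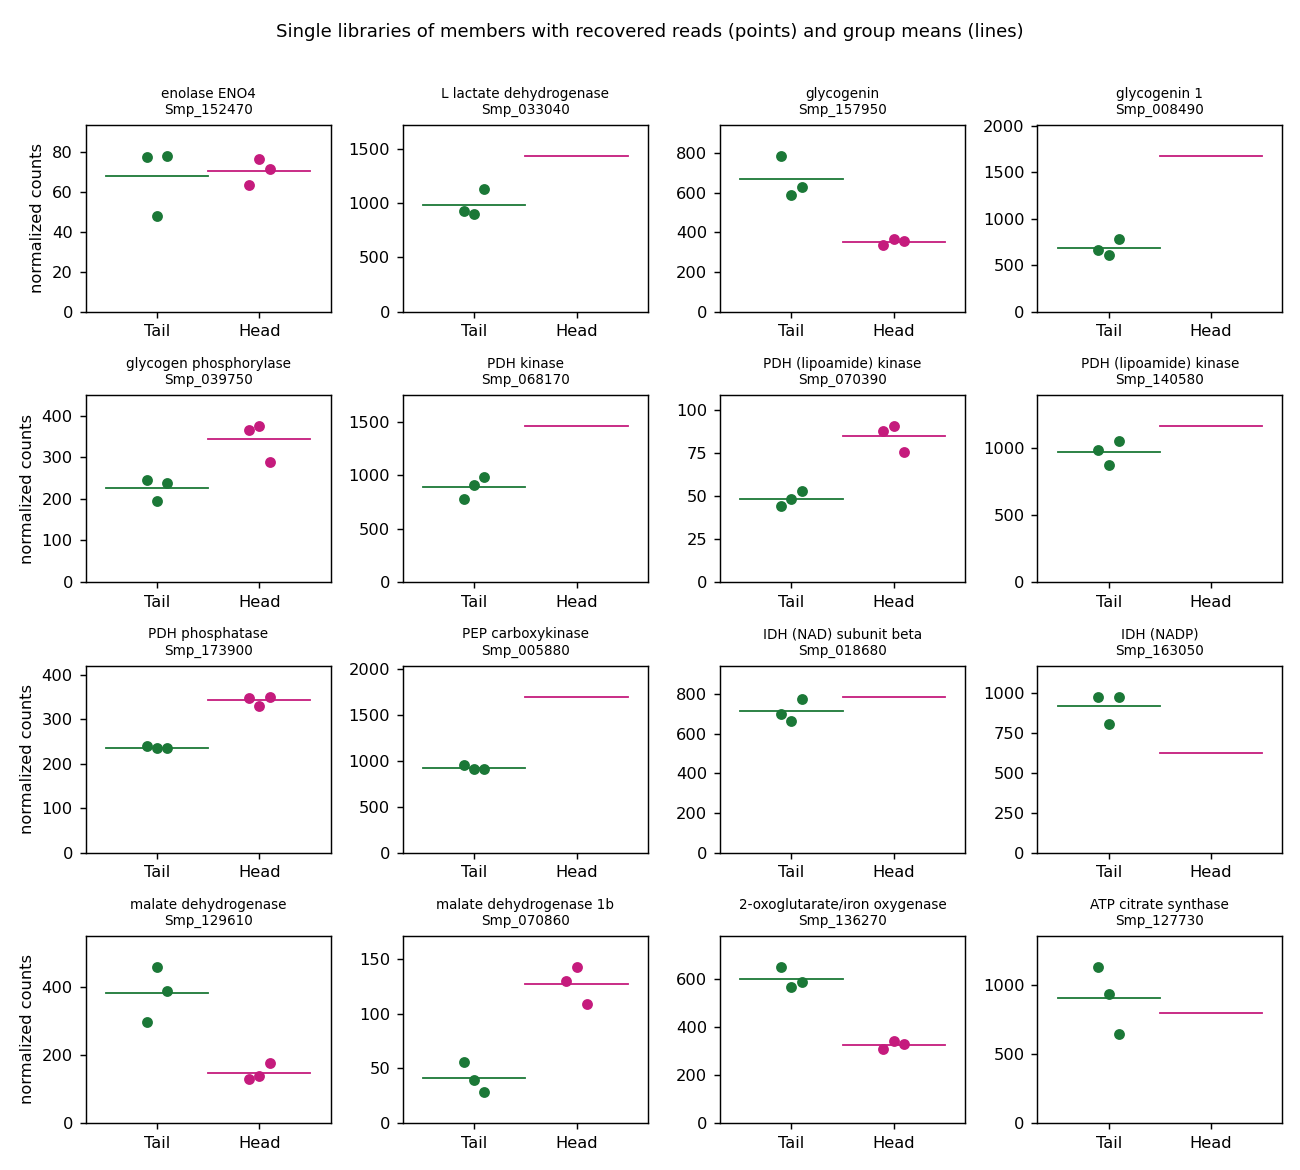
Normalised counts (vertical axes, each from 0) of the 16 members with recovered reads, tails in green and heads in pink, with a point for each library and a line at each group mean. Head points are shown only for the 8 members whose head reads were recovered, and in 7 of these the points of the groups do not overlap, the exception being enolase ENO4.

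In upper glycolysis, the steps that spend ATP on glucose and cleave it, 3 of 4 members were lower in tails, and all 4 with equal totals. At the authors' scaling 1051 of 3086 genes with a mean of at least 1000 were lower in tails. Equal totals shift every gene by -0.43 on the log2 scale. Hexokinase (Smp_043030), which traps glucose in the cell by phosphorylation, had an authors' mean of 5314 in tails, against 6541 in heads, a log2 fold change of -0.30. Phosphofructokinase (Smp_043670), the committed step of glycolysis, had 5156 in tails and 9557 in heads, the lowest ratio of the steps down to pyruvate at -0.89 (95% counting interval -0.93 to -0.86). Aldolase (Smp_042160), which splits fructose bisphosphate, had 48034 in tails and 80160 in heads (-0.74). Triosephosphate isomerase (Smp_003990), which interconverts the products of that split, differed in the other direction, with 9931 in tails and 8768 in heads (0.18). Hexokinase, phosphofructokinase and aldolase exceeded the scale of 0.25, and triosephosphate isomerase did not, although it passed the SE of 0.14. Their summed share was 0.416% of tail counts and 0.860% of head counts. Genes of the muscle list were mostly lower in tails as well, by the values given above, and the part of muscle in this difference was not tested.

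The steps from glyceraldehyde 3-phosphate to pyruvate differed little between the groups at the authors' scaling. Glyceraldehyde 3-phosphate dehydrogenase (Smp_056970), the step that makes NADH, had an authors' mean of 75293 in tails, against 82606 in heads (-0.13). Phosphoglycerate kinase (Smp_214060), which yields ATP, had 14371 in tails and 14842 in heads (-0.05). Phosphoglycerate mutase (Smp_096760), which moves the phosphate group, had 14656 in tails and 15003 in heads (-0.03). Enolase (Smp_024110), which makes phosphoenolpyruvate, had 40283 in tails and 42003 in heads (-0.06), and pyruvate kinase (Smp_065610), which closes the pathway with a further ATP, had 30001 in tails and 26202 in heads (0.20). All 5 stayed within the scale of 0.25 at that scaling, although pyruvate kinase passed the SE of 0.14. With equal totals all lay below 0, and 4 of them went past the scale, with glyceraldehyde 3-phosphate dehydrogenase at -0.56, phosphoglycerate kinase at -0.48, phosphoglycerate mutase at -0.46 and enolase at -0.49, while pyruvate kinase was at -0.23. The pyruvate kinase ratio was 1.09 above that of phosphofructokinase on the log2 scale, a difference that does not depend on how the groups are scaled.

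A gene annotated as the enolase protein ENO4 (Smp_152470), a relative of enolase known from the sperm tail of the mouse, was low in both groups. Its normalised counts were 77.9, 48.2 and 78.2 in the tail libraries 0.72, 0.35 and 0.32, against 63.5, 76.6 and 71.5 in the head libraries 2.55, 2.35 and 2.08. The groups overlapped. Its means were 68.1 ± 17.2 in tails and 70.5 ± 6.61 in heads (SD, n = 3 libraries each), and limma gave a log2 fold change of -0.08 with an SE of 0.25 and an adjusted p of 0.795. A difference of the size of this SE was not detectable at this depth.

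The 3 lactate dehydrogenase genes, whose enzymes reduce pyruvate to lactate, differed among themselves. The gene Smp_038950 had an authors' mean of 11550 in tails, against 9890 in heads, a log2 fold change of 0.22 that turned to -0.20 with equal totals. Its neighbour Smp_038960, with no gene between them in the RefSeq annotation, had 2319 in tails and 4923 in heads, so that it was 2.12-fold lower in tails (-1.09, 95% counting interval -1.14 to -1.03). The ratios of these neighbours were 1.31 apart on the log2 scale under any scaling. The sources used here do not say how reads shared by similar copies were assigned, so the division of reads between these neighbours is uncertain. The third, annotated as L lactate dehydrogenase (Smp_033040), had 925, 899 and 1127 normalised counts in the tail libraries, and an authors' mean of 1433 in heads. Each tail library lay below that head mean, and the log2 fold change was -0.54. Without ENO4, the 12 genes from hexokinase to lactate dehydrogenase held 1.57% of tail counts and 2.47% of head counts. Their median log2 fold change was -0.10, and 9 of them were lower in tails, beside 1051 of 3086 genes with a mean of at least 1000.

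Among the 6 glycogen genes, 4 were lower in tails and 2 higher, and the glycogenins stood at opposite ends. Of the 7196 genes with a mean of at least 100, 3173 were lower in tails. Glycogenin starts a glycogen particle by attaching the initial glucose units to itself. The glycogenin Smp_157950 had 786, 587 and 629 normalised counts in the tail libraries, against 335, 369 and 356 in the head libraries. Its lowest tail library lay well above its highest head library. It rose to 667 ± 105 in tails, against 353 ± 17.1 in heads (SD, n = 3 each), with a limma log2 fold change of 0.90, an SE of 0.13 and an adjusted p of 0.000851. Glycogenin 1 (Smp_008490) went the other way, with 660.5, 609.9 and 782 in the tail libraries and an authors' mean of 1675 in heads, 2.45-fold lower in tails (-1.29, 95% counting interval -1.39 to -1.20). Every tail library lay below the head mean by more than the tail libraries differed among themselves. The ratios of the glycogenins were 2.21 apart on the log2 scale.

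Glycogen synthase (Smp_018260), which extends the chains, had an authors' mean of 1772 in tails, against 2265 in heads (-0.35). Glycogen phosphorylase, which releases glucose phosphate from the chains, had 2 genes that are neighbours in the RefSeq annotation, so that, as for lactate dehydrogenase, the division of reads between them is uncertain. The gene Smp_143840 had 16834 in tails and 21407 in heads (-0.35). The gene Smp_039750 had 245, 196 and 238 normalised counts in the tail libraries, against 365, 374 and 289 in the head libraries. These groups did not overlap, and the gene fell to 226 ± 26.5 in tails, against 343 ± 46.5 in heads (SD, n = 3 each), with a limma log2 fold change of -0.60, an SE of 0.16 and an adjusted p of 0.0114. The call was lost without 1 library: without the head library 2.35 the adjusted p was 0.0575, and with values centred on the tested genes it was 0.772 (range over the alternatives 0.0109 to 0.772). From the group means, Smp_039750 was at -0.74 when centred on genes with a mean of at least 100, and at -1.03 with equal totals. The debranching enzyme (Smp_007650), which removes the branch points left by phosphorylase, had 1046 in tails and 901 in heads (0.22, and -0.21 with equal totals). With that limit on the phosphorylases, synthase and both phosphorylase genes had lower means in tails, and the 6 genes summed to 0.129% of tail counts and 0.221% of head counts.

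At the entry of pyruvate into the mitochondrion, the enzyme and its regulators were found on opposite sides. Pyruvate dehydrogenase converts pyruvate to acetyl-CoA, a kinase switches it off by phosphorylation and a phosphatase switches it on again. The pyruvate dehydrogenase gene Smp_079920 had an authors' mean of 3877 in tails, against 2878 in heads (0.43, and 0.00 with equal totals), and that annotated pyruvate dehydrogenase (lipoamide) (Smp_002510) had 2474 in tails and 1083 in heads, 2.29-fold higher in tails (1.19, 95% counting interval 1.13 to 1.25). Each of the 3 kinase genes had lower values in tails. The kinase Smp_068170 had 780.1, 905 and 979.7 normalised counts in the tail libraries, against an authors' mean of 1456 in heads (-0.71), and the kinase Smp_140580 had 980.3, 871 and 1049, against an authors' mean of 1159 in heads (-0.26). All tail libraries of these kinases lay below the head means.

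The kinase Smp_070390 had 44.5, 48.2 and 53.2 normalised counts in the tail libraries, against 87.8, 90.7 and 75.8 in the head libraries. The groups did not overlap, and it fell to 48.6 ± 4.37 in tails, against 84.8 ± 7.88 in heads (SD, n = 3 each), with a limma log2 fold change of -0.79, an SE of 0.21 and an adjusted p of 0.0111. Without the head library 2.35 the adjusted p was 0.0541, and centred on the tested genes 0.318 (range over the alternatives 0.00811 to 0.318). From the group means, this kinase was at -0.94 when centred on genes with a mean of at least 100, and at -1.23 with equal totals. The phosphatase (Smp_173900) had 239, 235 and 235 in the tail libraries, against 349, 331 and 351 in the head libraries. These libraries agreed closely within each group, at 236 ± 2.38 in tails and 344 ± 11.2 in heads (SD, n = 3 each), and the phosphatase fell with a limma log2 fold change of -0.54, an SE of 0.11 and an adjusted p of 0.00384. That difference equals the median of the genes tested, which were of low level: after centring on them it was 0.00 with an adjusted p of 0.985 (range over the alternatives 0.00239 to 0.985). From the group means, the phosphatase was at -0.68 when centred on genes with a mean of at least 100, and at -0.97 with equal totals.

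The enzymes that join pyruvate, phosphoenolpyruvate and oxaloacetate also parted. Pyruvate carboxylase (Smp_141360), which refills oxaloacetate from pyruvate, had an authors' mean of 1853 in tails, against 1056 in heads (0.81). Phosphoenolpyruvate carboxykinase (Smp_005880), which joins oxaloacetate and phosphoenolpyruvate, had 958, 908 and 911 normalised counts in the tail libraries, and an authors' mean of 1699 in heads (-0.88, 95% counting interval -0.96 to -0.79). The tail libraries of the carboxykinase differed little among themselves, with an SD of 28.2, and all lay far below the head mean. The ratio of the carboxylase was 1.69 above that of the carboxykinase on the log2 scale under any scaling.

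In the citrate cycle, 9 of 13 members were higher in tails and 4 lower, with a median log2 fold change of 0.50. Higher means in tails were common: 4023 of 7196 genes with a mean of at least 100, and 2035 of 3086 with at least 1000. The median of the 13 members was 0.36 after centring on genes with a mean of at least 100, with 8 of 13 above 0. It was 0.07 with equal totals, again with 8 above 0. Citrate synthase (Smp_204770), which brings acetyl-CoA into the cycle, had an authors' mean of 7780 in tails, against 5519 in heads (0.50). Aconitase (Smp_063090), which isomerises citrate, had 2413 in tails and 2289 in heads, a ratio of 0.08 that lay within the scale of 0.25 and turned to -0.35 with equal totals. As a share of all counts the 13 genes were close, with 0.267% in tails and 0.278% in heads.

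**Figure D3:**
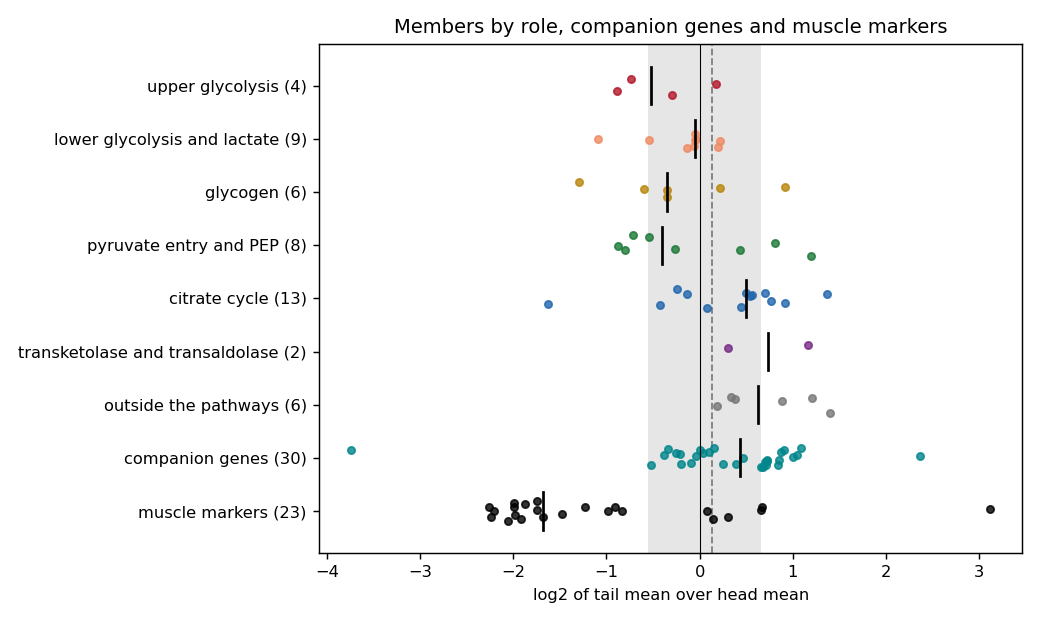
Log2 of the tail mean over the head mean for the members by role, for 30 companion genes found by related names and for 23 muscle markers, with a point for each gene and a black bar at each median. The grey band spans the quartiles of genes with a mean of at least 100 (-0.55 to 0.66), and the medians run from -0.52 in upper glycolysis to 0.73 in transketolase and transaldolase, with muscle markers at -1.68.

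Isocitrate dehydrogenase, which makes 2-oxoglutarate, is a complex of subunits in its NAD-dependent form and a separate enzyme in its NADP-dependent form. The NAD-dependent subunit Smp_196160 had an authors' mean of 1841 in tails, against 1081 in heads (0.77), and Smp_056200, annotated isocitrate dehydrogenase (NAD+), had 1935 in tails and 1418 in heads (0.45). The subunit annotated beta (Smp_018680) had 701, 667 and 776 normalised counts in the tail libraries and an authors' mean of 787 in heads (-0.14). Its highest tail library came close to the head mean, so this subunit differed by little more than the spread between tail libraries. The NADP-dependent enzyme (Smp_163050) had 972, 806 and 977 in the tail libraries, all above its authors' mean of 622 in heads (0.56). Oxoglutarate dehydrogenase (Smp_044970), the next step, had 7154 in tails and 8450 in heads (-0.24).

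Fumarate hydratase adds water to fumarate to give malate, and its genes differed in direction. The gene annotated fumarate hydratase (Smp_158240) had an authors' mean of 1934 in tails, against 2594 in heads (-0.42). The gene annotated class I (Smp_126020), the form with an iron-sulphur cluster, had 2307 in tails and 1586 in heads (0.54), a difference of 0.96 between the ratios.

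Malate dehydrogenase, which links malate and oxaloacetate in mitochondria and cytosol, had 4 genes, and these held both extremes of the cycle. The mitochondrial gene (Smp_047370) had an authors' mean of 9930 in tails, against 5278 in heads (0.91), and the cytosolic gene (Smp_035270) had 6547 in tails and 4026 in heads (0.70). The gene annotated only as malate dehydrogenase (Smp_129610) had 299, 459.6 and 388 normalised counts in the tail libraries, against 128, 139 and 178 in the head libraries. Its groups were far apart, and it rose to 382 ± 80.5 in tails, against 148 ± 26.2 in heads (SD, n = 3 each), with a limma log2 fold change of 1.35, an SE of 0.20 and an adjusted p of 0.000922.

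Malate dehydrogenase 1b (Smp_070860) had 55.6, 39.7 and 28.2 normalised counts in the tail libraries, against 131, 143 and 109 in the head libraries. Every head library was above every tail library, although the tail libraries differed more in proportion. It fell to 41.2 ± 13.8 in tails, against 128 ± 17.3 in heads (SD, n = 3 each), with a limma log2 fold change of -1.65, an SE of 0.28 and an adjusted p of 0.00166. From the group means it was 3.10-fold lower in tails, the only member past 3-fold, and its log2 ratio of -1.63 became -1.91 without the tail library 0.72. The ratios of Smp_129610 and malate dehydrogenase 1b were 3.00 apart on the log2 scale. Under each scaling tried, the other 3 malate dehydrogenases were higher in tails and 1b lower.

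Transketolase and transaldolase move carbon units between sugar phosphates and so connect glycolysis with ribose. Transketolase (Smp_059790) had an authors' mean of 30927 in tails, against 13781 in heads, 2.24-fold higher in tails (1.17, 95% counting interval 1.15 to 1.18). Transaldolase (Smp_070600) had 3349 in tails and 2720 in heads (0.30), and it lay at -0.13 with equal totals, while transketolase stayed at 0.74. The transketolase ratio was 1.91 above that of aldolase, another enzyme that acts on sugar phosphates.

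**Figure D4:**
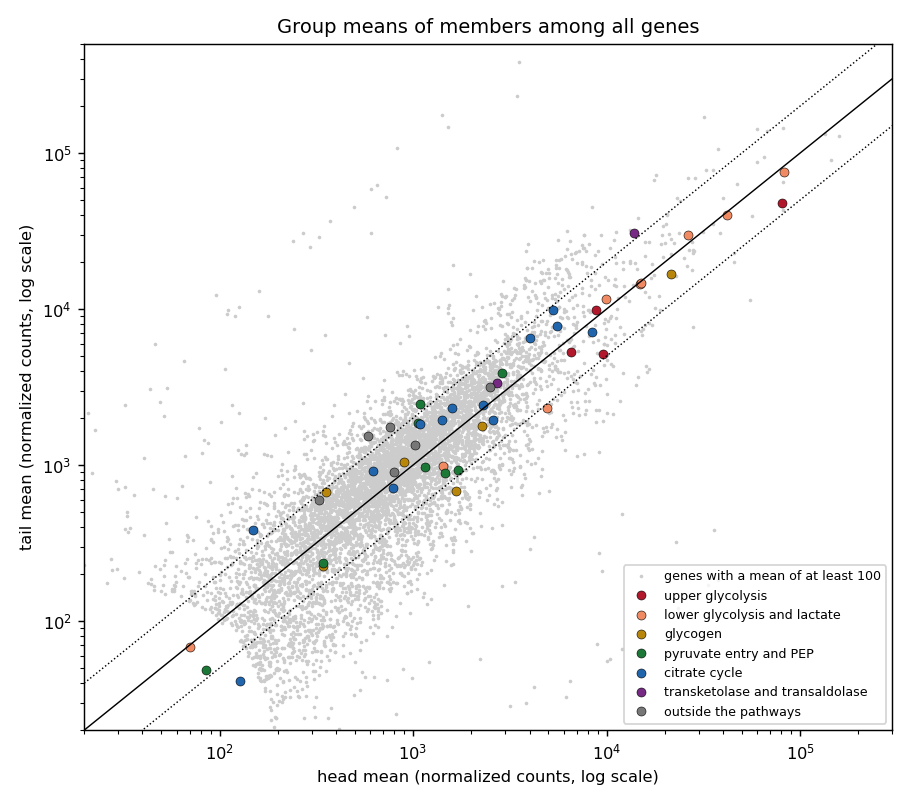
Tail mean against head mean in normalised counts, both axes logarithmic, for the members coloured by role and for all genes with a mean of at least 100 in grey, with lines at equality (solid) and at 2-fold (dotted). Most members lie inside the cloud of grey points, and transketolase (30927 in tails, 13781 in heads) is among the 5 above the upper dotted line.

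The 6 genes outside the pathways were all higher in tails at the authors' scaling, and 3 of them with equal totals. At the authors' scaling 4023 of 7196 genes with a mean of at least 100 were higher in tails. The mitochondrial 2-oxoglutarate:malate carrier (Smp_004080), which exchanges these acids across the inner membrane, had an authors' mean of 1544 in tails, against 585 in heads, 2.64-fold higher in tails (1.40, 95% counting interval 1.32 to 1.48). The 4-hydroxyphenylpyruvate dioxygenase (Smp_007960), an enzyme of tyrosine breakdown, had 1758 in tails and 759 in heads (1.21). A 2-oxoglutarate and iron dependent oxygenase (Smp_136270), of a family that hydroxylates its substrates, had 649, 565 and 585 normalised counts in the tail libraries, against 307, 343 and 328 in the head libraries. The groups did not overlap, and it rose to 599.7 ± 44.2 in tails, against 326 ± 18.0 in heads (SD, n = 3 each), with a limma log2 fold change of 0.88, an SE of 0.11 and an adjusted p of 0.000442. The remaining members were a kynurenine oxoglutarate transaminase (Smp_213720, 0.33), a deoxyribose phosphate aldolase (Smp_141970, 0.38) and the ATP citrate synthase (Smp_127730, 0.18), which cleaves citrate to acetyl-CoA in the cytosol. The ATP citrate synthase had 1126, 933 and 642 normalised counts in the tail libraries, a range that includes its authors' mean of 793 in heads.

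Further genes, found by words for related sugar and mitochondrial enzymes that the search did not cover, were counted as companions. These words also found genes outside the pathways, such as a sodium dependent glucose transporter (Smp_139150) and the UDP glucose:glycoprotein glucosyltransferases (Smp_176100 and Smp_133700), which act in glycoprotein folding, so the counts are of the list and not of the pathways. Of 30, the mean was higher in tails for 21 and lower for 9, with a median log2 fold change of 0.43, and 4 were at least 2-fold higher and 1, the glucosyltransferase Smp_176100 (-3.74), at least 2-fold lower. Beside these, 4023 of 7196 genes with a mean of at least 100 were higher in tails. Of the same genes, 13.9% were at least 2-fold higher and 16.7% at least 2-fold lower. With equal totals the 30 divided into 15 above and 15 below 0. All 5 genes named for succinate dehydrogenase, the cycle enzyme that feeds electrons to the respiratory chain, or for its assembly, were higher in tails, at 0.66 to 0.87, and stayed above 0 under each scaling tried. The 5 genes of the dihydrolipoamide components, the partners of pyruvate and oxoglutarate dehydrogenase in their complexes, were higher in tails by 0.39 to 1.05, with 4 of 5 above 0 at equal totals. The dihydrolipoamide dehydrogenase (Smp_046740), shared by both complexes, had an authors' mean of 4366 in tails, against 2115 in heads (1.05).

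In the pentose phosphate pathway, ribose 5-phosphate isomerase (Smp_148770), which makes the ribose phosphate of nucleotides, had the highest ratio of the 30 companions, with an authors' mean of 1781 in tails, against 347 in heads (2.36). Ribulose phosphate epimerase (Smp_104580), which supplies transketolase, had 2358 in tails and 1111 in heads (1.09), and the 6-phosphogluconate dehydrogenases Smp_199860 and Smp_071840 had ratios of 0.91 and 0.85. Glucose 6-phosphate dehydrogenase (Smp_052810), which commits glucose to this pathway, had 1773 in tails and 2118 in heads (-0.26), and glucose 6-phosphate isomerase (Smp_022400), which leads it into glycolysis, had 6293 in tails and 6455 in heads (-0.04). Genes of the proliferating cell list were mostly higher in tails as well, by the values given above, and their part in these ratios was not tested.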

How the data were processed

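Libraries were made with a TruSeq stranded kit. Per the submitters' notes and the methods, STAR 2.5.0b aligned the reads to WormBase ParaSite v4, with a read counter not given in the sources used here. Deposited signal values are group means, made by the authors from 3 libraries after scaling each with a DESeq 1.22 size factor. The other deposited columns hold the authors' fold changes and p-values and were not used. No coordinates or sequences were used. RefSeq gene names (assembly ASM23792v2), matched for 39 of 48 members, served only to find neighbouring genes.

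The reads behind each mean were recovered as the whole numbers that the size factors, estimated from the lowest means, allow, where tail means were under 1000 (6437 of 6441 genes, 99.94%) or head means under 400 (4452 of 4593, 96.93%). In simulated data, 1243 of 1255 tail genes and 854 of 905 head genes had a single solution. These all matched the simulated reads, which was fixed in advance because the same size factors made and solved the means. The simulation thus gives how often a solution is single and cannot reveal errors in the size factors. In the deposited means, 4 tail genes within the limit had no solution. The test was limma 3.58.1 with a mean-variance trend on log2(normalised count + 1), tails against heads, over the 3915 genes with at least 10 reads and reads in both groups, with Benjamini-Hochberg adjustment. On simulated data for this comparison, 57 of 100 2-fold changes and 86 of 100 4-fold changes were found, and 3 of 3715 unchanged genes were called. The simulation gave both groups the same dispersion and left most genes unchanged. In the data, 22.0% of the genes tested were called higher and 41.6% lower, so the simulated rates may not hold for them. Counting intervals (95%, exact binomial) use reads taken as the group mean times the summed size factors and cover counting error only. Whether a group's libraries came from separate worm collections is not stated, so p-values measure the spread between these libraries.

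Members, gene lists and tests were chosen with earlier results of these data known. Values are given for the most abundant gene of each step, for pathway members at least 2-fold different with a mean of at least 100, and for members with reads in both groups. The other members named were added after their values were seen. Alternatives changed the fold counted, the scaling, the pseudocount, the filters, the trend and the libraries used.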

Additional observations from a re-analysis of the deposited data

How the results depend on the processing

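The count of members at least 2-fold lower in tails, 3 as reported, was 9 at a fold of 1.5, 1 at a fold of 3, 9 with equal group totals and 5 with ratios centred on genes with a mean of at least 100. The count at least 2-fold higher, 5 as reported, was 11 at a fold of 1.5, 0 at a fold of 3, 0 with equal group totals and 3 without the members outside the pathways. The median log2 fold change of members, 0.13, was -0.30 with equal totals. These shifts follow from the scaling or the threshold itself. Leaving out each recovered library in turn gave 3 to 3 lower, 5 to 6 higher and a median of 0.03 to 0.15, but only 16 members have recovered tail reads and 8 have head reads. The others, 5 of the 8 members at least 2-fold different among them, kept their full group means there, so these ranges say little about stability. Of those 8 members, 0 changed sign with another scaling or pseudocount, or, in the 3 that have recovered reads, with a library left out. The limma calls, 7 of 8 as reported, were 4 after centring on the tested genes and 5 to 7 with a library left out, the lowest without the head library 2.35. The phosphatase Smp_173900 turned to 0.0026 after centring, and ENO4 (Smp_152470) to 0.46 after centring and to between -0.20 and 0.15 with a library left out (0.15 without the tail library 0.35), none past the threshold. No paired analysis was possible because the deposited columns carry no replicate numbers. Abundant members have no spread between libraries, and tail depth limits the members of low level.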
